A study of Mus musculus with 6 samples.

Results

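Transcripts of 10 genes that cells switch on in response to ERK, many of whose products restrain the same pathway, were followed in cultured mouse pancreatic acini with and without the secreted protein DKK3. The members were taken from the table by gene name: 3 MAP kinase phosphatases (Dusp4, Dusp5, Dusp6), 2 Sprouty genes (Spry2, Spry4), 2 SPRED genes (Spred1, Spred2), 2 ETS factors of the PEA3 subfamily (Etv4, Etv5) and Phlda1. All 10 were found, of 56953 genes in the table, and all 10 passed the filter on low counts that left 14738 genes for testing. The set was chosen by name with the group comparisons of these same libraries already known, so its differences between groups are given as a description.

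Bulk RNA was sequenced from 6 acinar cultures harvested at day 3 of culture in Matrigel, an assay of acinar-to-ductal metaplasia (ADM) during which explanted acini lose their secretory state and form duct-like structures. There were 3 groups of 2 libraries. WT acini had both Dkk3 alleles and no treatment, DD acini came from whole-body Dkk3 knockout mice and had no treatment, and DD + rDKK3 acini came from the same knockout and received recombinant DKK3. The labelled ages were 10 and 11 weeks in WT, 12 and 13 weeks in DD, and 14 and 15 weeks in DD + rDKK3, so age and group cannot be told apart. All groups shared one medium, which held serum, trypsin inhibitor and dexamethasone. The knockout allele lacks exon 2 and leaves a shorter intracellular isoform, so it is a model of the loss of secreted DKK3 from all tissues. If the labelled ages are taken as given, the 2 libraries of a group came from different animals. The ages rise week by week in the order of the samples. Read the same way, they would also set same-numbered DD and DD + rDKK3 libraries apart, although these share a name. No animal is numbered, so neither reading could be checked. Every spread below is that between 2 libraries.

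Receptor tyrosine kinases switch on RAS, which activates the kinases RAF, MEK and ERK in turn, and active ERK enters the nucleus and phosphorylates ETS-family and other transcription factors. Among the genes that are then transcribed are inhibitors of the cascade itself. DUSP phosphatases remove the activating phosphates from ERK, Sprouty proteins blunt the step from receptor to RAS, and SPRED proteins bring neurofibromin to the membrane to inactivate RAS. Because these transcripts follow ERK activity, they are widely read as a record of it, although they do not measure ERK phosphorylation. In the pancreas this cascade is known to drive acinar cells toward a duct-like state.

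Library totals ranged from 12018473 to 19750401 counts, and the members together took 1393 to 3796 of them. Dkk3 itself was below the filter, at 10 and 1 counts in WT, 11 and 9 counts in DD, and 5 counts in each DD + rDKK3 library, and a gene count cannot show the loss of 1 exon. Levels are given in CPM, counts scaled to the depth of the library. The 12 acinar marker genes summed to between 79752 and 140191 CPM, so the markers that define the labelled cell type were abundant in every library. Their sum was 140191 and 104021 CPM in WT, 92514 and 79752 CPM in DD, and 106207 and 84843 CPM in DD + rDKK3. It was lower in both DD libraries than in either WT library, and the part of acinar content in the members' differences was not tested. The libraries DD 2 and DD + rDKK3 2 stood apart. Their 11 fibroblast and stellate cell markers summed to 756 and 853 CPM, against 41.9 to 152 CPM in the other 4 libraries, and their 8 macrophage markers to 239 and 184 CPM against 57.5 to 116 CPM. Lyz2 made up the largest part of these macrophage sums, at 133 and 85.4 CPM, and not every macrophage marker set these libraries apart. Cd68 was at 36.8 and 41.4 CPM in them and 29.5 to 42.2 CPM in the others. C1qa and Ptprc in WT 1 lay between their values in DD 2 and DD + rDKK3 2. No marker of either list was at 0 in any library. The library WT 2 was labelled female and the others male, yet WT 2 held 722 counts of the Y-linked gene Ddx3y, within the 404 to 990 counts of the labelled males, beside 16 counts of Xist, which was at 0 elsewhere. WT 1 had the smallest total and the lowest TMM scaling factor, 0.848 against 0.990 to 1.07 in the other libraries. The members are therefore also described without these libraries. In bulk RNA, more cells of a type and more RNA per cell cannot be told apart.

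Phlda1 was the member with the widest separation between the groups. It encodes a pleckstrin homology-like domain protein whose transcript is a common readout of MEK activity (ENSMUSG00000020205.9, plus strand of chromosome 10, 111342147 to 111344506 in GRCm39). Its level was 20.9 and 25.1 CPM in WT, 44.5 and 48.4 CPM in DD, and 25.7 and 25.9 CPM in DD + rDKK3. Both DD libraries were above all the others, and the treated libraries lay just above the WT pair. WT averaged 23.0 ± 2.98 CPM, DD averaged 46.5 ± 2.72 CPM and the treated acini averaged 25.8 ± 0.143 CPM (SD, n = 2 each). On the log2 scale DD exceeded WT by 1.01 (SE 0.154), a 2.01-fold difference with a 95% interval of 1.57 to 2.58. DD + rDKK3 was below DD by a log2 fold change of -0.85 (SE 0.152), or 0.555-fold with an interval of 0.435 to 0.708, and differed from WT by 0.16 (SE 0.154). Leaving out each library in turn kept the DD against WT value between 0.90 and 1.16 and the DD + rDKK3 against DD value between -0.93 and -0.79.

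Neither difference of Phlda1 was called by edgeR's quasi-likelihood test with Benjamini-Hochberg adjustment over all 14738 genes, which gave adjusted p values of 0.23 for DD against WT and 1.00 for DD + rDKK3 against DD. Its unadjusted p ranked 14 of 14738 in the first comparison and 3 in the second. DESeq2 called both differences, with adjusted p values of 0.000283 and 0.0236. Without a filter on low counts edgeR called both too. Over the alternatives without a replicate block, the adjusted p ran from 2e-05 to 0.772 for DD against WT and from 0.00683 to 1.00 for DD + rDKK3 against DD.

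Dusp6, which encodes a cytoplasmic phosphatase specific for ERK, showed the same order of groups at a smaller size. The gene (ENSMUSG00000019960.9) lies on the plus strand of chromosome 10 from 99099093 to 99103351. Its level was 15.8 and 13.6 CPM in WT, 21.6 and 27.7 CPM in DD, and 13.4 and 17.2 CPM in DD + rDKK3. The DD libraries were again the highest of the 6, and the WT and treated pairs overlapped. DD exceeded WT 1.68-fold with an interval of 1.20 to 2.35 (log2 fold change 0.75, SE 0.21), and DD + rDKK3 was 0.62-fold of DD with an interval of 0.444 to 0.865 (log2 fold change -0.69, SE 0.207). Treated and WT acini differed by 0.057 on the log2 scale (SE 0.211). Without 1 library at a time the first value ran from 0.56 to 0.94 and the second from -0.89 to -0.50. The edgeR adjusted p was 0.586 and 1.00. Without a filter on low counts edgeR called the first difference, at an adjusted p of 0.024. Over the alternatives without a replicate block, the adjusted p ran from 0.024 to 0.952 for the first and from 0.331 to 1.00 for the second.

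**Figure D1:**
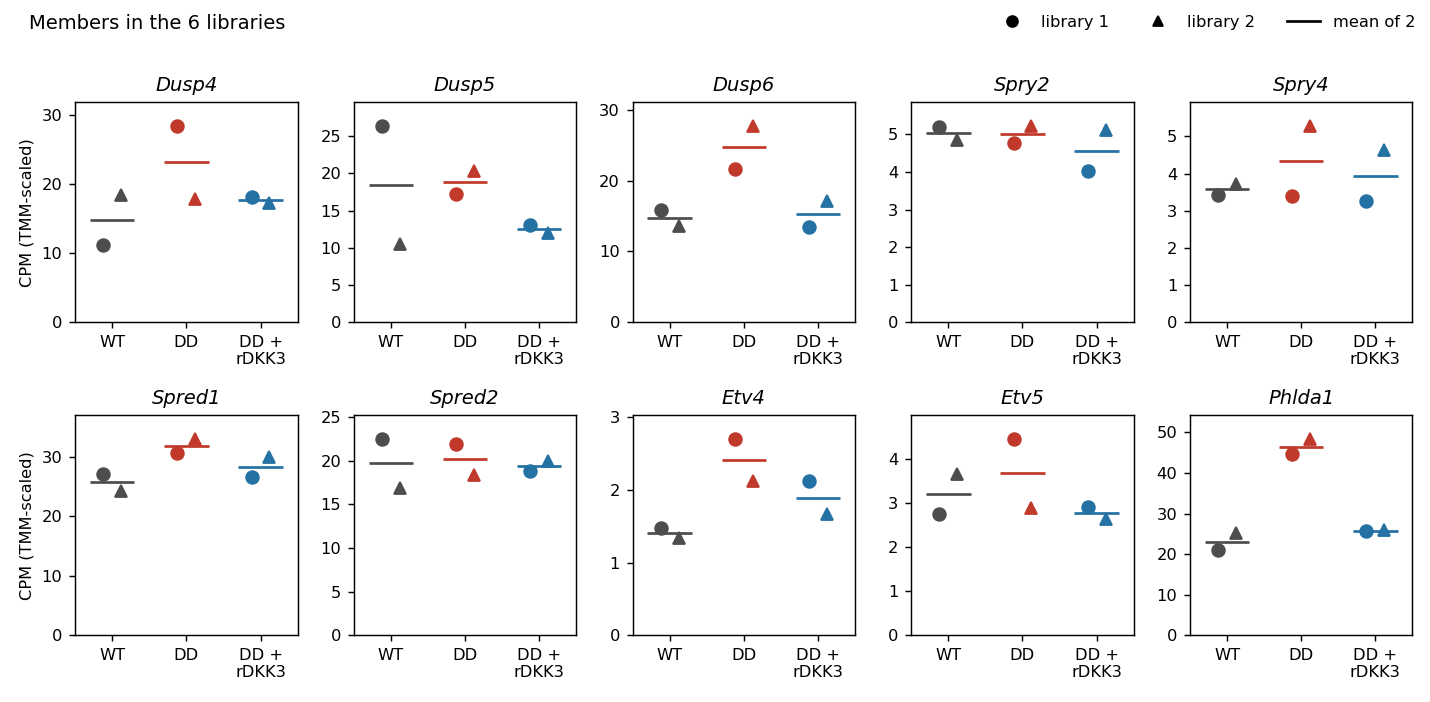
CPM (vertical axis, from 0) of each member in the 6 libraries, with groups along the horizontal axis, circles for library 1, triangles for library 2 and a bar at the mean of 2. In Dusp6, Spred1, Etv4 and Phlda1 both DD libraries lie above the other 4, whereas the WT libraries of Dusp5 lie at 26.4 and 10.5 CPM, on both sides of the DD pair.

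The other 2 phosphatases act in the nucleus. Dusp4, which acts on several MAP kinases (ENSMUSG00000031530.7, plus strand of chromosome 8, 35274451 to 35287048), was at 11.2 and 18.3 CPM in WT, 28.4 and 17.9 CPM in DD, and 18.1 and 17.3 CPM in DD + rDKK3. One DD library was high and the other lay inside the WT range. The fitted difference of DD from WT was 0.64 (SE 0.292), and it was 0.29 without DD 1, 0.35 without WT 1 and 1.05 without WT 2. The difference of treated from untreated DD acini was -0.39 (SE 0.287) with all libraries and -0.039 without DD 1. The size of each difference of Dusp4 thus depended on single libraries.

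Dusp5, whose product dephosphorylates ERK and holds it in the nucleus (ENSMUSG00000034765.7, plus strand of chromosome 19, 53517540 to 53530862), was the most variable member within a group. WT libraries held 26.4 and 10.5 CPM, DD libraries 17.3 and 20.4 CPM, and treated libraries 13.1 and 12.0 CPM. The 2 WT values enclosed all 4 others. DD differed from WT by 0.041 (SE 0.374), and this value was -0.48 without WT 2 and 0.86 without WT 1, so no direction can be given. The treated pair lay below the DD pair without overlap, by a log2 fold change of -0.58 (SE 0.374) with an interval of -1.45 to 0.29.

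Upstream sequence is shown for these 2 phosphatases because Dusp6 is the phosphatase whose DD libraries stood above all others and Dusp5 is the one whose upstream bases hold a searched motif. The stretches are the first 200 of the 250 bases before the start in the RefSeq promoter table of GRCm38.p6, both on the plus strand, at chr10:99262981-99263180 for Dusp6 and chr19:53528895-53529094 for Dusp5. Capitals mark 2 adjacent CArG boxes, the element bound by serum response factor.
Dusp6: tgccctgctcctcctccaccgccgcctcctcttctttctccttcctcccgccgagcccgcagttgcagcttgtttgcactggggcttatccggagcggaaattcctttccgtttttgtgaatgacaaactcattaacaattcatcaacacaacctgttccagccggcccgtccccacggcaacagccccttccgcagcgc
Dusp5: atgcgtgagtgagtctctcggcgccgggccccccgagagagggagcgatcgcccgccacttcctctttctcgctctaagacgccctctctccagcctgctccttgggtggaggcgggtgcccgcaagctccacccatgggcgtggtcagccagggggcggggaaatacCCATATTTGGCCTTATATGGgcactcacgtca

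Of the members, 6 had 7 promoters in that table, which holds 32851 promoters. Dusp4, Etv4, Phlda1 and Spry4 were not in it. The 250 bases before each start were searched on both strands. The ETS motif CCGGAAG was in 0 of the 7 member promoters and in 6.91% of all promoters. The AP-1 motif TGANTCA was in 0 against 6.75%, and the CRE motif TGACGTCA in 0 against 1.55%. The CIC motif was searched only as TGAATGAA or TGAATGGA, which was in 0 against 2.07%. Forms of the CIC motif with C as the second base were not searched, so neither count covers them. The windows of Dusp6 and Spry2 each hold such a form on the strand opposite to the gene. The CArG box was in 1, that of Dusp5, against 1.47%. No match says only that these letters are not in this window.

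The ETS factors had the lowest mean CPM of the members in each group. Etv4 (ENSMUSG00000017724.15, minus strand of chromosome 11, 101660568 to 101676197) had 15 and 19 counts in WT, 57 and 36 counts in DD, and 40 and 31 counts in DD + rDKK3. The same libraries held 1.47 and 1.33 CPM, 2.698 and 2.12 CPM, and 2.11 and 1.67 CPM. The groups followed the order WT, DD + rDKK3, DD without overlap, but the lower DD library exceeded the upper treated library by less than counting error, since their 95% Poisson intervals were 1.48 to 2.93 CPM and 1.51 to 2.88 CPM. DD exceeded WT 1.72-fold with an interval of 0.974 to 3.03 (log2 fold change 0.78, SE 0.353). The treated acini lay between, at -0.35 (SE 0.335) from DD and 0.43 (SE 0.356) from WT.

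Etv5 (ENSMUSG00000013089.16, minus strand of chromosome 16, 22200059 to 22258469), the close relative of Etv4, did not share that order. It was at 2.75 and 3.65 CPM in WT, 4.45 and 2.88 CPM in DD, and 2.90 and 2.64 CPM in DD + rDKK3. Only DD 1 stood above the rest, and its 95% Poisson interval of 3.59 to 5.44 CPM met that of WT 2, 2.73 to 4.79 CPM. The difference of DD from WT, 0.19 (SE 0.33), became -0.14 without it. The treated acini differed from DD by -0.41 (SE 0.326) and from WT by -0.22 (SE 0.334).

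Among the inhibitors that act on RAS, Spred1 (ENSMUSG00000027351.15, plus strand of chromosome 2, 116951855 to 117012760) was at 27.1 and 24.2 CPM in WT, 30.5 and 32.98 CPM in DD, and 26.6 and 30.01 CPM in DD + rDKK3. The DD pair was the highest, with DD 1 only slightly above the upper treated library. The difference was small: DD exceeded WT 1.24-fold with an interval of 0.967 to 1.58, and treated acini were 0.891-fold of DD with an interval of 0.699 to 1.14. Spred2 (ENSMUSG00000045671.18, plus strand of chromosome 11, 19874375 to 19974026) overlapped in all 3 comparisons. Its values were 22.5 and 16.9 CPM in WT, 21.96 and 18.4 CPM in DD, and 18.8 and 19.95 CPM in DD + rDKK3, and the interval of DD against WT allowed 0.75-fold to 1.41-fold.

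Both Sprouty genes overlapped between the groups in all 3 comparisons. Spry2 (ENSMUSG00000022114.6, minus strand of chromosome 14, 106129381 to 106134253) was at 5.21 and 4.85 CPM in WT, 4.78 and 5.23 CPM in DD, and 4.01 and 5.11 CPM in DD + rDKK3. Its DD to WT ratio was 0.996 with an interval of 0.668 to 1.49, so a difference within these bounds was not detectable here. Spry4 (ENSMUSG00000024427.8, minus strand of chromosome 18, 38719300 to 38734468) was at 3.44 and 3.72 CPM in WT, 3.41 and 5.29 CPM in DD, and 3.27 and 4.63 CPM in DD + rDKK3. Its 2 high values were in DD 2 and DD + rDKK3 2, the libraries with the high fibroblast and macrophage marker sums, and the part of those cells in the Spry4 level was not tested. The 95% Poisson interval of DD 2, 4.25 to 6.50 CPM, just met that of DD 1, 2.67 to 4.29 CPM. With both number 2 libraries left out, the DD against WT difference of Spry4 went from 0.27 (SE 0.326) to -0.075. Dusp6, Spred1, Spry2 and Phlda1 were also higher in library 2 than in library 1 of both Dkk3-null groups. For Phlda1 in the treated pair that gap was only 25.9 against 25.7 CPM.

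**Figure D2:**
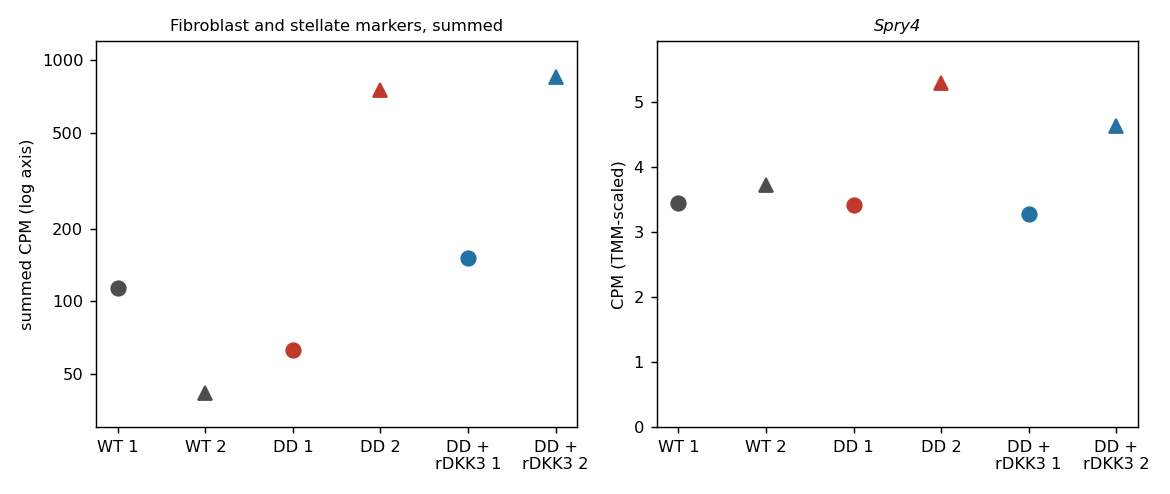
The summed CPM of 11 fibroblast and stellate markers (left, log axis) and the CPM of Spry4 (right, axis from 0) in each of the 6 libraries, circles for library 1 and triangles for library 2, colored by group. DD 2 and DD + rDKK3 2 are the highest in both panels, at 756 and 853 CPM of markers and 5.29 and 4.63 CPM of Spry4.

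Over the whole set, 9 of 10 members had a higher fitted level in DD than in WT, beside 51.7% of all genes tested. The members' median log2 fold change was 0.29, beside 0.016 over all genes tested. Leaving out 1 library could change the sign of Dusp5, Spry2, Spry4, Spred2 and Etv5. Without overlap between the groups, 4 of 10 were higher (Dusp6, Spred1, Etv4 and Phlda1), where 18.1% of all genes tested were. At an unadjusted p under 0.05, 2 of 10 were higher (Dusp6 and Phlda1), against 4.27% of all genes. The edgeR test called 0 of 10 members and 6 genes in all, 0.0407%. DESeq2 called 1 member and 77 genes, and limma-voom 0 members and 8 genes. Since the comparison was known when the members were chosen, nothing is read from these shares.

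In DD + rDKK3 against DD, 10 of 10 members had a lower fitted level, where 49.5% of all genes had a higher one. The members' median was -0.37, beside -0.0028 over all genes. Without 1 library the value reached 0.052 in Spred2, 0.21 in Spry4 and 0.016 in Spry2, so the direction of these members depended on single libraries. The groups did not overlap in 5 of 10 (Dusp5, Dusp6, Spred1, Etv4 and Phlda1), against 14.4% of all genes in that direction, and 2 of 10 (Dusp6 and Phlda1) were lower at an unadjusted p under 0.05, against 1.38%. The edgeR test called no gene, 0% of those tested, with 292 genes at an unadjusted p under 0.05 in either direction. With a replicate block over the 4 Dkk3-null libraries, edgeR called 194 genes, 2 of them members (Dusp6 and Phlda1). The labels name no common animal, so that block was not part of the main fit. DESeq2 called 5 genes, 1 of them a member, and limma-voom called 0. This comparison and the first share the DD libraries, so a low or high DD value enters both with opposite sign. Both DD libraries lay above the other 4 in 4 members and in 4.03% of all genes.

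Against WT, the treated acini had 6 members higher and 4 lower, where 51.6% of all genes were higher. The members' median was 0.098, beside 0.017 over all genes. The groups did not overlap in 2 members (Etv4 and Phlda1), against 27.9% of all genes higher without overlap. None was higher at an unadjusted p under 0.05, where 7.34% of all genes were, and the test called 0 members and 7 genes, 0.0475%. DESeq2 called 0 members and 61 genes, and limma-voom 0 members and 3 genes. The interval was widest for Dusp5, at -1.42 to 0.34 on the log2 scale, and narrowest for Spred1, at -0.21 to 0.50. A remaining difference of either size thus cannot be told from none.

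**Figure D3:**
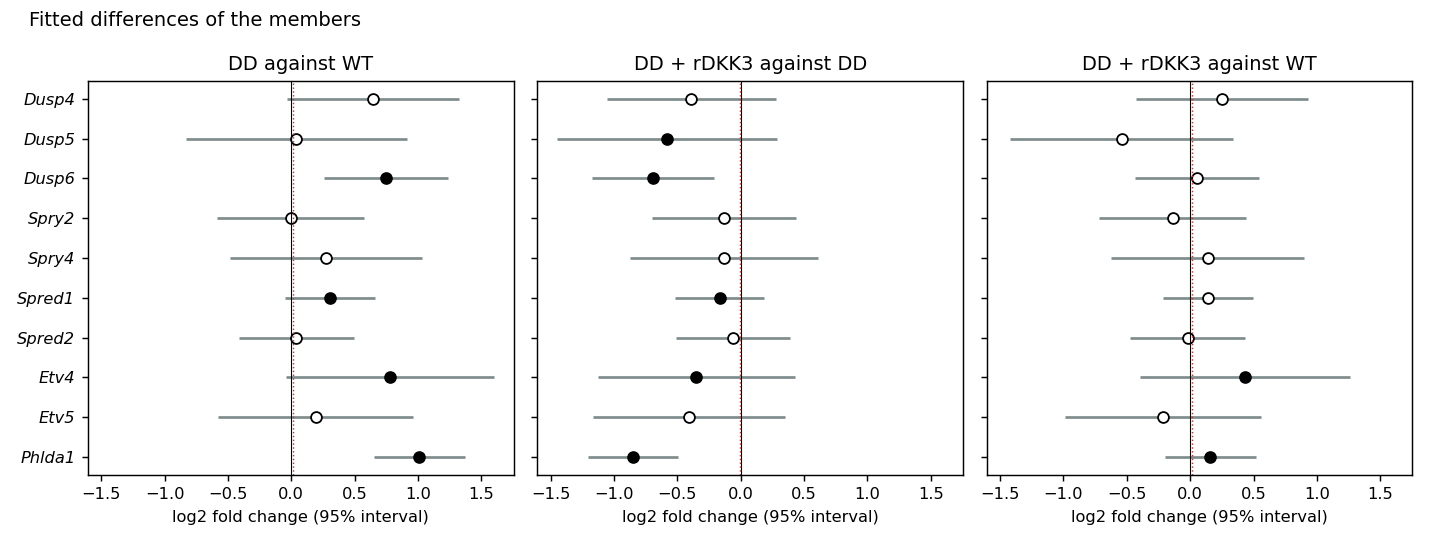
Fitted log2 fold change of each member (points) with its 95% interval (lines) in the 3 comparisons. Filled points mark members whose 2 groups did not overlap, the solid line is 0 and the dotted line the median of all genes tested. The intervals of Dusp6 and Phlda1 exclude 0 in the first 2 comparisons, and no interval does in the third.

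With DD 2 and DD + rDKK3 2 left out together, the median was 0.36 in DD against WT, -0.37 in DD + rDKK3 against DD and -0.092 in DD + rDKK3 against WT. Phlda1 then differed by 0.95, -0.79 and 0.16 in the same order, and Dusp6 by 0.56, -0.68 and -0.13. Without WT 2, the library whose sex-linked counts went against its label, Phlda1 differed from WT by 1.16 in DD and 0.31 in DD + rDKK3, and Dusp6 by 0.65 and -0.044. Without WT 1, DD exceeded WT by 0.90 in Phlda1 and 0.87 in Dusp6. Both genes were thus higher in DD than in WT without each of these libraries.

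The members also differed widely in level, which was compared as CPM per kilobase of exon. In WT, Phlda1 averaged 10.4, Dusp5 7.43, Dusp4 5.13, Dusp6 4.34, Spred1 3.31 and Spred2 3.23. Spry2 followed at 0.976, Spry4 at 0.543, Etv4 at 0.443 and Etv5 at 0.427. Every library of the first 6 genes lay above every library of the last 4. In WT, neighbors in this order overlapped in their 2 libraries, with the exceptions of Dusp6 and Spred1, Spred2 and Spry2, Spry2 and Spry4, and Spry4 and Etv4. Exon lengths came from a later annotation than the counts, whose gene ends differed for 8 of the 10 members, so small differences between genes carry that uncertainty too. In DD, Phlda1 averaged 21.1, and Dusp4, Dusp5 and Dusp6 lay together at 8.04, 7.59 and 7.28.

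**Figure D4:**
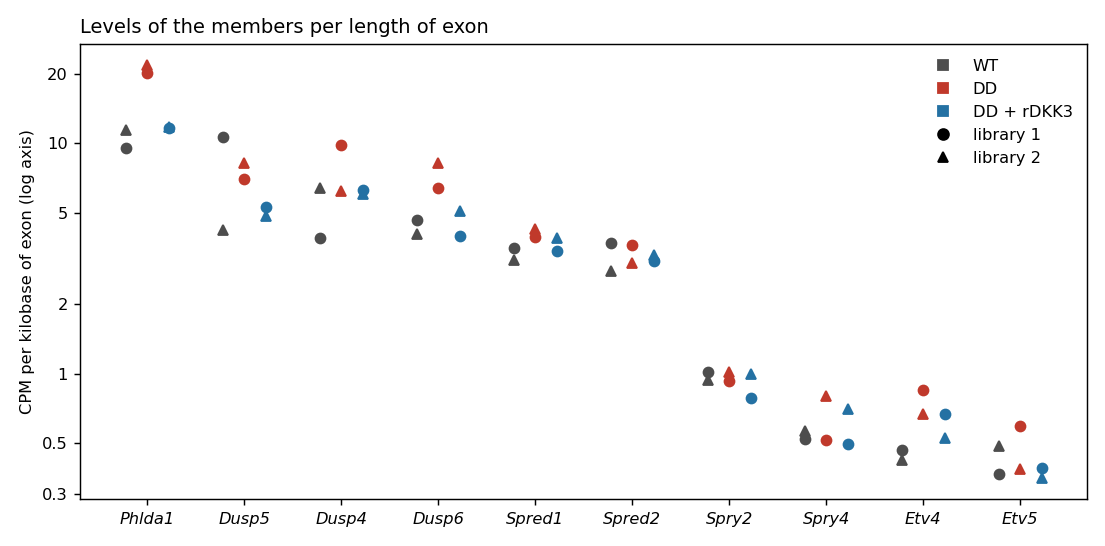
CPM per kilobase of exon (log axis) for the 10 members in order of their WT mean, 1 point per library, colored by group with circles for library 1 and triangles for library 2. Phlda1, the phosphatases and the SPRED genes lie above the Sprouty and ETS genes in every library.

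How the members varied together was described by the mean of their centered log2 CPM, which was -0.11 and -0.19 in the WT libraries, 0.27 and 0.24 in the DD libraries, and -0.15 and -0.067 in the treated libraries. Over the 6 libraries this mean had a Pearson r of 0.938 with Phlda1, 0.933 with Dusp6, 0.858 with Spred1 and 0.781 with Etv4, which enter it themselves. The other 6 members had r between 0.308 and 0.570. The profile of the mean is thus that of 4 members more than of all 10. Of 8512 other protein-coding genes, the 5 most like it were Acer2 (r 0.989), which encodes an alkaline ceramidase, Acp5 (0.987), an acid phosphatase, Mboat2 (0.975), a lysophospholipid acyltransferase, Tpm1 (0.974), a tropomyosin, and Pls3 (0.973), an actin-bundling plastin. With 6 libraries and so many genes, high values of r arise easily. Acer2, for example, was at 8.15 and 6.46 CPM in WT, 16.9 and 14.3 CPM in DD, and 7.82 and 8.01 CPM in DD + rDKK3.

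Other genes of the pathway were set beside the members from 4 lists, written with earlier results of these data known, and no gene of any list was called by edgeR in any comparison. The closest relatives of the members, 12 tested of 14 listed, divided evenly, with 6 higher and 6 lower in DD than in WT, a median of 0.19, and 2 higher and 0 lower at an unadjusted p under 0.05, where 4.27% of all genes tested were higher. The 3 with the smallest p were Dusp1, a phosphatase induced by stress and growth factors, at 0.78 (SE 0.235), Dusp9 at 0.78 (SE 0.318) and Dusp7 at 0.42 (SE 0.185), the last 2 being cytoplasmic ERK phosphatases like Dusp6. Dusp1 was at 34.6 and 50.01 CPM in WT, 64.1 and 81.5 CPM in DD, and 58.9 and 77.5 CPM in DD + rDKK3. Its treated libraries thus stayed near the DD values, a difference of -0.093 (SE 0.231), unlike those of Dusp6 at -0.69 (SE 0.207), although the difference between the 2 genes was not tested. Dusp9 was at 1.67 and 1.55 CPM in WT, 2.65 and 2.88 CPM in DD, and 1.74 and 1.72 CPM in DD + rDKK3. For these relatives DD + rDKK3 against DD had a median of -0.088, with 1 higher (Dusp8) and 1 lower (Phlda2) at an unadjusted p under 0.05. At that p 1.38% of all genes were lower, and 292 of 14738 genes had such a p in either direction.

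Other transcripts that ERK induces numbered 14 tested of 15 listed. All 14 had a higher fitted level in DD than in WT, with a median of 0.74, and 6 of them did so at an unadjusted p under 0.05. Over all genes tested 51.7% had a higher fitted level, and 4.27% were higher at that p. The 3 with the smallest p were Plaur, the urokinase receptor, at 0.90 (SE 0.151), Areg, an EGF receptor ligand, at 1.63 (SE 0.316), and the immediate early gene Fos at 2.09 (SE 0.613). Some of the list, including Plaur, Areg, Fos, Egr1 and Dusp1 of the list before, had been picked out by the study in these libraries and are not independent evidence. Plaur was at 22.6 and 25.8 CPM in WT, 42.8 and 47.6 CPM in DD, and 25.3 and 26.9 CPM in DD + rDKK3, values close to those of Phlda1. Fos was at 8.06 and 37.7 CPM in WT, 78.8 and 118 CPM in DD, and 55.4 and 98.0 CPM in DD + rDKK3. The treated libraries of Fos overlapped the DD pair, with a difference of -0.36 (SE 0.579). In DD + rDKK3 against DD the list had a median of -0.36, with 12 lower and 2 higher, and 5 lower at an unadjusted p under 0.05, where 1.38% of all genes were.

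The components of the cascade itself lay in a narrower range. Of 26 genes for receptors, adaptors, RAS, RAF, MEK and ERK, 0 had an unadjusted p under 0.05 in DD against WT or in DD + rDKK3 against DD. Of all 14738 genes tested, 1217 and 292 had such a p. The medians of the 26 genes were 0.18 and 0.039. In DD against WT 22 of them had a higher fitted level, beside 51.7% of all genes. In DD + rDKK3 against DD 17 did, beside 49.5%. The smallest p values in DD against WT belonged to Rasa1, which inactivates RAS, at 0.36 (SE 0.164), Sos1, which activates it, at 0.41 (SE 0.208), and the EGF receptor gene Egfr at 0.29 (SE 0.162). Of 14 genes for ETS factors and for repressors or partners at their targets, 1 was higher at an unadjusted p under 0.05. It was Ets1 at 0.43 (SE 0.171), and 4.27% of all genes were higher at that p. Cic at 0.42 and Srf at 0.33 came next, and the median over the list was 0.099. Against DD, the treated acini had a median of 0.14 over this list. In DD + rDKK3 against WT the medians were 0.077 for the relatives, 0.13 for the induced transcripts, 0.26 for the cascade and 0.19 for the ETS list. At an unadjusted p under 0.05, where 7.34% of all genes were higher, 4 of the 26 cascade genes were higher (Erbb3, Egfr, Rasa1 and Sos1, at 0.38 to 0.53) and 3 of the ETS list (Cic, Atxn1l and Srf, at 0.41 to 0.66). Of the relatives 2 were higher (Dusp1 and Dusp8), and of the induced transcripts 3 were higher (Fos, Egr1 and Errfi1) and 1 lower (Ccnd1).

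**Figure D5:**
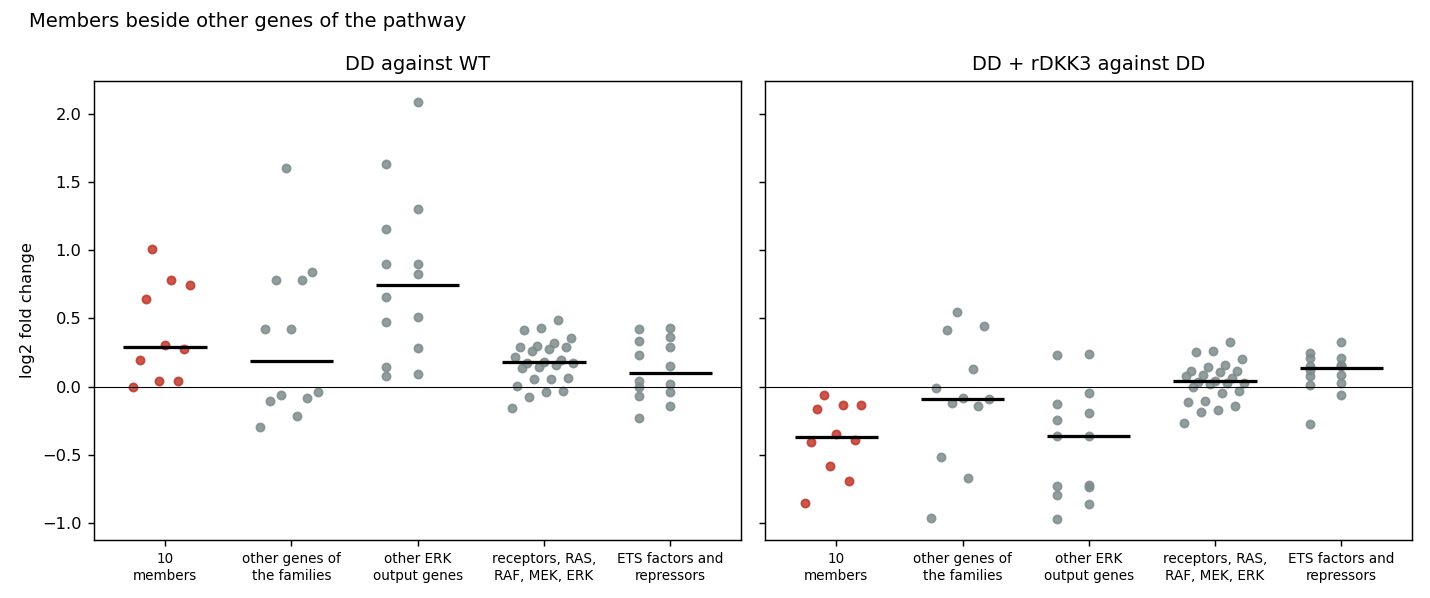
Fitted log2 fold change of each gene (points) and the list median (bar) for the 10 members and 4 lists of other pathway genes, in DD against WT (left) and DD + rDKK3 against DD (right). The medians of the members are 0.29 and -0.37 and those of the other ERK output genes 0.74 and -0.36, while the 26 cascade genes lie around medians of 0.18 and 0.039.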

How the data were processed

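RNA was sequenced from 6 libraries of day 3 acinar cultures. The authors deposited raw counts per gene, made with a strand-specific NEBNext kit, 50-bp paired-end reads, STAR 2.7.9a on GRCm39, the basic GENCODE M32 annotation and union-mode exon counting summed per gene, with no pooling. Strand-specific counting keeps antisense reads out of a gene, and no member shares exon bases with another gene on its strand. The count table held 57045 rows, of which 92 spike-in rows held 0 counts and were left out.

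Genes were filtered with edgeR's filterByExpr (minimum count 10, minimum total 15), scaled by TMM and fitted with edgeR 4.0.16 (R 4.3.3) by its two-sided quasi-likelihood F-test over all 6 libraries and 3 groups, with Benjamini-Hochberg adjustment over all genes and a call at an adjusted p under 0.05. The authors used DESeq2 1.38.0. The main fit differs from theirs so that the uncertainty of the dispersion with 3 residual degrees of freedom enters the test. Standard errors are the size of the log2 fold change divided by the root of F. CPM uses TMM-scaled totals, log2 CPM a prior count of 2, and Poisson intervals are exact at 95% and cover counting error only. Library totals of 12018473 to 19750401 counts set the precision, and 3 counts corresponded to 0.142 to 0.295 CPM. Replicates differed by more than counting noise (chi-square per degree of freedom 23.4 to 66.9), so each counted as a library. Alternatives were DESeq2 1.42.0, limma-voom 3.58.1, other scalings and filters, a replicate block, and leaving out libraries. Leaving out DD 2 and DD + rDKK3 2 together was added after seeing the data.

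Members and lists were chosen with earlier results of these data known. Named genes were all members, Dkk3, the 3 genes of each list with the smallest p in DD against WT, and the 5 genes most like the members' mean among those with an average log2 CPM of at least 3. Xist, Ddx3y, Dusp8, Phlda2, Egr1, Errfi1, Ccnd1, Erbb3 and Atxn1l were named after their values were seen. Promoters came from RefSeq on GRCm38.p6 and exon lengths from GENCODE M39. Comparison of the member proteins was not done here.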

Additional observations from a re-analysis of the deposited data

How the results depend on the processing

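Of 460 member values under alternatives, 419 kept their direction and their side of the threshold, 34 changed sign and 7 became called. In DD against WT, genes called went from 6 to 77 with DESeq2, 528 without a filter, 2 to 6 without 1 library (2 without WT 1, without WT 2 or without DD 1) and 14 without DD 2 and DD + rDKK3 2. Members called went to 1 with DESeq2 and 2 without a filter. The members' median of 0.29 was 0.49 with library size alone, which moved the median of all genes to 0.22, 0.34 without a filter, 0.31 to 0.38 without 1 library and 0.36 without the pair. In DD + rDKK3 against DD, genes called went from 0 to 5 with DESeq2, 73 without a filter and 194 with the replicate block over the 4 Dkk3-null libraries, and members called to 1, 1 and 2. The median ran from -0.48 to -0.23 without 1 library. In DD + rDKK3 against WT, genes called went from 7 to 61 with DESeq2, 3 with limma-voom, 788 without a filter and 2 to 9 without 1 library (2 without either WT library, 3 without DD + rDKK3 1), and the median from 0.098 to 0.27 with library size alone, where that of all genes was 0.18, -0.092 to 0.19 without 1 library and -0.092 without the pair. Spry2 in DD against WT was 0.20 with library size alone, 0.049 without a filter, 0.0085 with only the 2 groups and -0.069 to 0.084 without 1 library. Without 1 library, DD against WT ran from -0.48 to 0.86 in Dusp5, -0.15 to 0.27 in Spred2, -0.14 to 0.47 in Etv5 and -0.072 to 0.58 in Spry4. DD + rDKK3 against DD ran from -0.18 to 0.052 in Spred2, -0.44 to 0.21 in Spry4 and -0.32 to 0.016 in Spry2. DD + rDKK3 against WT ran from -0.034 to 0.66 in Dusp4, -1.07 to 0.28 in Dusp5, -0.21 to 0.21 in Spred2, -0.13 to 0.22 in Dusp6, -0.38 to 0.016 in Etv5, -0.32 to 0.024 in Spry2 and -0.12 to 0.37 in Spry4. It was 0.030 in Spry2 and 0.16 in Spred2 with library size alone, and 0.0023 in Spred2 with limma-voom and 0.027 without a filter. Without the pair, Dusp5 was -0.085 and Spry4 -0.075 in DD against WT, and Dusp6 -0.13 and Spry4 -0.12 in DD + rDKK3 against WT. The causes were not tested.

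The replicate numbers share only a name, and the labels name no common animal. Deviations from the group means correlated at 0.65 between same-numbered DD and DD + rDKK3 libraries, at -0.39 between WT and DD and at -0.25 between WT and DD + rDKK3. A replicate block over the 4 Dkk3-null libraries gave adjusted p values of 0.000288 for Phlda1 and 0.00991 for Dusp6, against 0.00683 to 1.00 and 0.331 to 1.00 under the other settings. A replicate block over all 6 libraries called 7, 0 and 5 genes and no member. The members with the fewest counts, Etv4 with 15 to 57 and Etv5 with 28 to 94, are limited by depth, and 2 libraries a group cannot give an exact permutation p below 0.333.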
